A study of Arabidopsis thaliana x Arabidopsis arenosa with 4 samples.

Results

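The genes described here are the 54 nuclear genes of Arabidopsis whose RNA level was at least 2-fold higher in each of 3 interspecific F1 hybrids than in the allotetraploid line Allo733. They were found among 326 genes that the deposited tables list beside Allo733 for all 3 hybrids, out of 1811 listed beside it for any hybrid and 16610 listed in any table. A member had log2((hybrid RPKM + 0.1)/(Allo733 RPKM + 0.1)) of at least 1 in every hybrid, where RPKM is a read number divided by transcript length and by the library's mapped reads, with 1 transcript kept for each gene. The ratio to Allo733 chose the members, so it is given below as a description with no test.

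RNA came from whole siliques, the young fruits with the seeds inside, at 4 days after pollination. The hybrids joined tetraploid Arabidopsis thaliana, of the ecotype C24, Ler or Col (Col-0 in the growth protocol), with tetraploid Arabidopsis arenosa, and are called the C24, Ler and Col crosses. The labels do not state which species was the seed parent, and the part of seed-parent tissue in the RNA was not tested. Allo733 is an allotetraploid in generation F8 whose A. thaliana ecotype is labelled Ler, and its genome thus also holds both species. All plants came from seed sown on agar, were moved to soil and grown in long days, and flowers were emasculated and pollinated by hand. Each of the 4 groups was 1 library, so no difference from Allo733 has a replicate check and the Allo733 value is the same number in all 3 comparisons. Values given in threes below are those of the C24, Ler and Col crosses, always in this order, and the value after "against" is that of Allo733. A library made from a whole fruit mixes tissues, and a change in the number of cells of a type cannot be told apart from a change in RNA per cell.

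The selection rule of the tables that hold Allo733 is not given in the sources used here, and they list 1512, 947 and 887 transcripts, with a median log2 ratio to Allo733 of -0.55, -0.37 and -0.21 over their genes. The ratios below are not centred on these medians, which would raise each of them. Of the tissue markers examined, the leaf-type gene RBCS1A of Rubisco was at 7930, 8736 and 7377 RPKM against 7073, whereas markers of endosperm (FIS2, PHE1, IKU2, ZOU), of the embryo (WOX2, LEC1, WOX8) and of the seed coat (BAN, TT10, TT12) were listed in no table. A further seed coat marker, TTG2, was at 4.36, 5.66 and 4.89 RPKM and not listed beside Allo733. Epidermis markers stood on both sides of Allo733. ATML1 was at 39.2, 20.12 and 52.7 RPKM against 13.3, and PDF1 was at 25.1, 40.6 and 78.1 RPKM against 122. Of the xylem markers, LAC4 was at 351, 40.9 and 42.8 RPKM against 75.5, and IRX3 too was above Allo733 with C24 only. XCP2 was nearly level with Allo733 in the C24 cross and below it in the others, and XCP1 was not listed beside it. The pollen marker AGP23 was at 8.20, 17.1 and 21.6 RPKM against 3.72, and the other pollen markers examined were not listed beside Allo733. The tables of the crosses alone list no total below 2.00 RPKM. The part of tissue composition in the results was not tested.

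As background, a silique is a green organ whose wall carries out photosynthesis. Its chloroplasts collect light with an antenna of chlorophyll-binding proteins, the products of the LHC or CAB genes, which pass energy to photosystems that drive carbon fixation in the Calvin cycle. Its outer cell layer makes a cuticle of cutin and wax from long fatty acids, and its growing walls are built and remodelled by enzymes that act on xylan, xyloglucan and pectin. In hybrids and allopolyploids between these species, both parental copies of a gene can be transcribed, and the amounts of each are known to differ from gene to gene.

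The 54 members were 16.6% of the 326 genes listed in all 3 tables, and 80 genes (24.5%) were at least 2-fold lower than Allo733 in every cross. Within the table of 1 cross, 425 of 1319 genes (32.2%), 242 of 806 (30%) and 257 of 785 (32.7%) were at least 2-fold higher. Because the same contrast defined the members, nothing is read from these shares. The members' median level was 129, 101 and 111 RPKM against 33.0, and their median log2 ratio to Allo733 was 1.77, 1.67 and 1.59. Their summed RPKM was 28584, 34438 and 30616 against 10699, most of it from a few light-harvesting genes.

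As for the crosses among themselves, the highest cross was a median of 1.37 times the lowest for the members, 1.57 times over all 326 genes and 1.63 times for the 80 genes that were lower in every cross. For 34 of the 54 members the 3 crosses lay within 1.5-fold of each other, and for 11 they lay at least 2-fold apart. The Ler cross was the highest for 25 members, the C24 cross for 20 and the Col cross for 9. The same totals entered the rule, so this spread is a description.

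**Figure D1:**
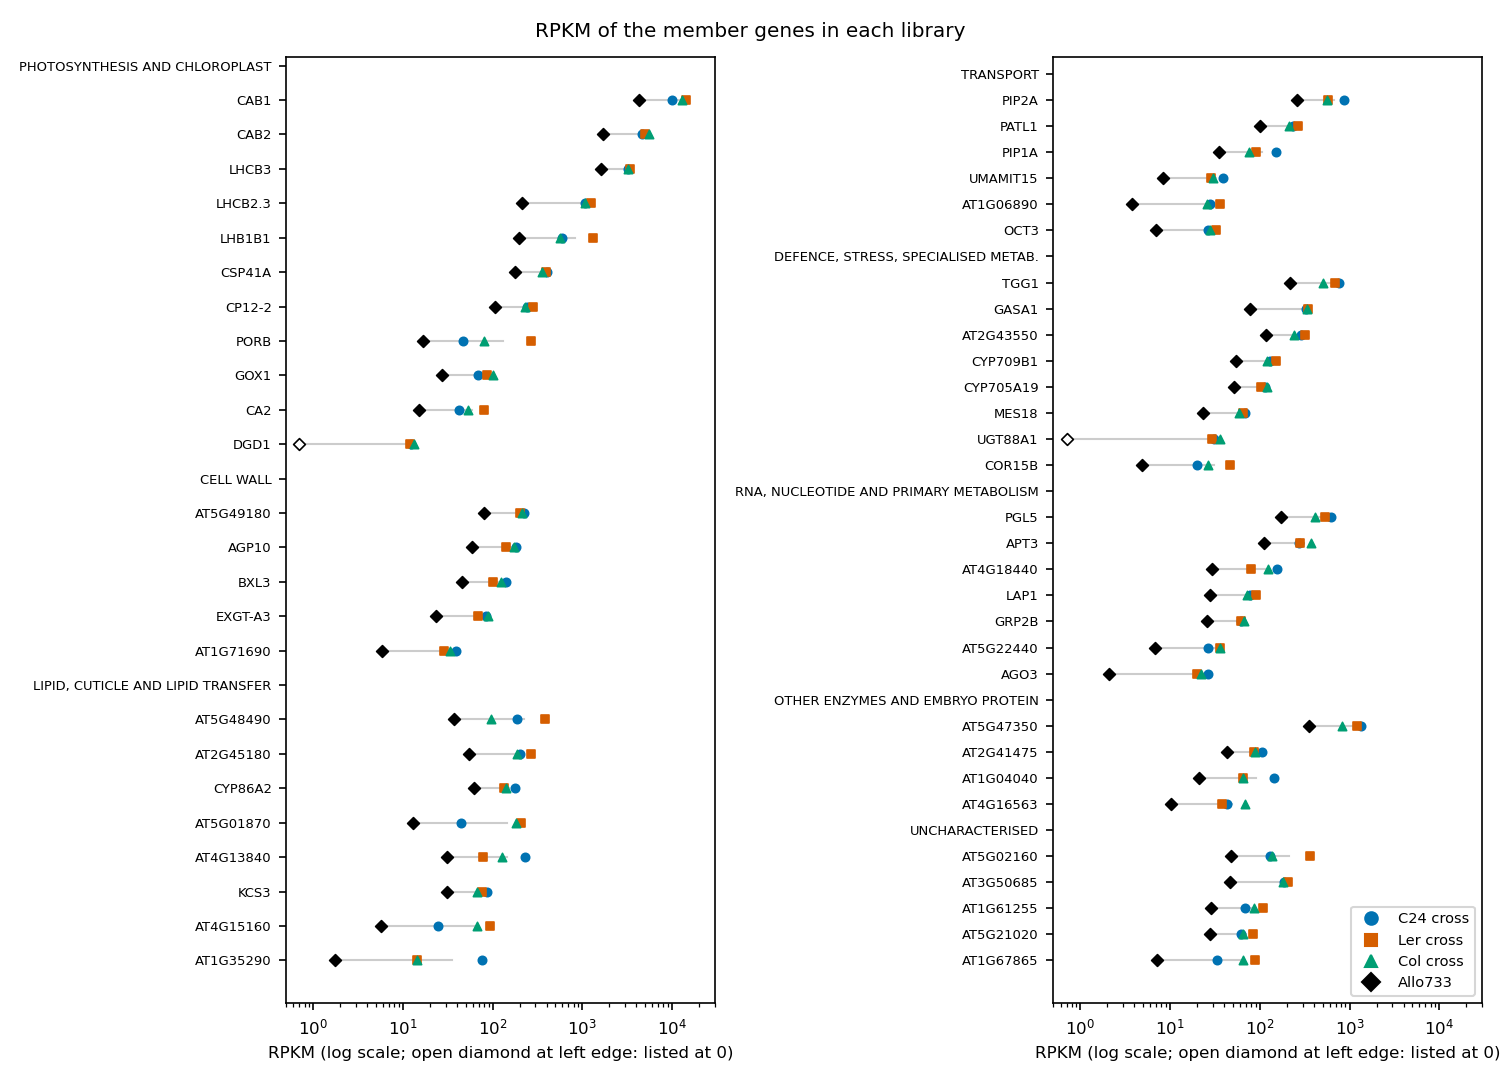
RPKM of each of the 54 members in the C24 cross (circle), Ler cross (square), Col cross (triangle) and Allo733 (diamond), on a log axis and grouped by role, with 1 library a group. A grey line joins Allo733 to the mean of the crosses, and the 2 open diamonds mark UGT88A1 and DGD1, listed at 0 in Allo733; every diamond lies left of the 3 crosses, as the rule requires.

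Roles were assigned after the members were known. The largest group, with 11 members, belongs to photosynthesis and the chloroplast, and 5 of these encode light-harvesting proteins of photosystem II. CAB1 (AT1G29930), an antenna gene of the Lhcb1 type and the most abundant member, was at 10054, 14475 and 12876 RPKM against 4294. Its neighbour CAB2 (AT1G29920), of the same type, was at 4673, 5013 and 5484 RPKM against 1683. LHB1B1 (AT2G34430), a further Lhcb1-type gene, was at 596, 1302 and 569 RPKM against 195. The Ler cross thus stood above the other crosses for LHB1B1, at 2.29 times the lowest, while for CAB2 the crosses lay within 1.17-fold of each other. LHCB2.3 (AT3G27690), which encodes an Lhcb2 protein, a kind phosphorylated in light acclimation, was at 1081, 1235 and 1065 RPKM against 211, or 5.13-, 5.86- and 5.05-fold higher. LHCB3 (AT5G54270), whose product is a partner in the same antenna trimers, was at 3224, 3390 and 3234 RPKM against 1606, which placed it barely inside the rule at 2.01-, 2.11- and 2.01-fold. For LHCB2.3, CAB2 and LHCB3 the crosses were nearly alike, and Allo733 alone stood apart.

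The 250 bases before the annotated start of these 5 genes are shown because the genes share a function and 4 of them are among the 5 most abundant members. They come from the TAIR10.1 assembly and its annotation, matched by gene code, run 5′ to 3′ on the strand of the gene, and have every ACGT in capitals. That motif, the core of the sites of many light-responsive plant promoters, was added to the motif list after the sequences had been seen. The regions are chr1:10477635-10477884 (plus strand) for CAB1, chr1:10475970-10476219 (minus strand) for CAB2, chr2:14524357-14524606 (plus strand) for LHB1B1, chr3:10255656-10255905 (plus strand) for LHCB2.3 and chr5:22037915-22038164 (plus strand) for LHCB3.
CAB1: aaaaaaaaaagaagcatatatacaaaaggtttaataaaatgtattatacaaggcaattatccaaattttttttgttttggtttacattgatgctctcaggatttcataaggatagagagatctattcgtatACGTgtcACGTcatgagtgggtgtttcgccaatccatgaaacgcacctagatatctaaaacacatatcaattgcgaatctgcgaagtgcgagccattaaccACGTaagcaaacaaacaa
CAB2: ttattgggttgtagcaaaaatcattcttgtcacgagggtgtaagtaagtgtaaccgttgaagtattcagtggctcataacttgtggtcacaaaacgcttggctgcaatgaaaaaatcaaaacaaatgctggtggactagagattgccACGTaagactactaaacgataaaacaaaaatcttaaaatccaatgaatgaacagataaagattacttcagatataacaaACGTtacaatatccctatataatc
LHB1B1: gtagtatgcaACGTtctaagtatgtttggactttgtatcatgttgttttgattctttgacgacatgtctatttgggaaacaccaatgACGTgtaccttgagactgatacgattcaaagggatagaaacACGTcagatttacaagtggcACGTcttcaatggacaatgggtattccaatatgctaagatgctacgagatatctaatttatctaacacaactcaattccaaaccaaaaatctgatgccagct
LHCB2.3: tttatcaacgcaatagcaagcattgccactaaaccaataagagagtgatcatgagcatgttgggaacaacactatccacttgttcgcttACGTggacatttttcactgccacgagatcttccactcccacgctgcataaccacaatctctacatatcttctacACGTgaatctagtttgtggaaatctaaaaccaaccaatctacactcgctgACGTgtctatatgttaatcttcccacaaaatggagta
LHCB3: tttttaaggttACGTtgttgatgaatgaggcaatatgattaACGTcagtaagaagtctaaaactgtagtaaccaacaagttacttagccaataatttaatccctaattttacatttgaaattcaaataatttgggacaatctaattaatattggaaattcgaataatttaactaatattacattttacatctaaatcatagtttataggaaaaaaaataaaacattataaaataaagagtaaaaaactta

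The window held 3 ACGT cores in CAB1, 2 in CAB2, 4 in LHB1B1, 3 in LHCB2.3 and 2 in LHCB3. CAB1 and CAB2 lie next to each other on opposite strands, and no other members are neighbours. The coding sequences of CAB1 and CAB2 share 96.1% of aligned bases, and CAB1 and the non-member CAB3 share 96.4%, so reads of these genes can be exchanged in mapping and their separate levels are uncertain. LHB1B1 shares 92.5% with the non-member LHB1B2.

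Close relatives of the antenna members were above Allo733 in every cross too, but missed the 2-fold rule in at least 1 cross. CAB3 (AT1G29910) was at 5748, 8840 and 4524 RPKM against 2784, which passed 2-fold in the C24 and Ler crosses and missed it in the Col cross, with a log2 ratio of 0.70. LHCB2.2 was at 3272, 3678 and 2559 RPKM against 1568, and LHB1B2 was at 6851, 6340 and 6048 RPKM against 3929. LHCB2.1 had log2 ratios of 0.26, 0.63 and 0.64.

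Of a list of 29 photosynthesis genes, 27 were listed beside Allo733 for some cross and 19 for all 3. All 19 were above Allo733 in every cross, whereas 111 of the 326 genes listed in all tables were. Only CAB1 and LHCB3 of the 19 were members, and none was 2-fold lower. The median of the 19 genes' mean log2 ratios was 0.74, against -0.57 over the 326 genes. Among the others, the antenna gene LHCB6 had log2 ratios of 1.06, 1.03 and 1.00, the photosystem I gene PSAD-1 had 0.96, 1.16 and 0.98, and RBCS1A had 0.16, 0.30 and 0.06. Of the genes missing from some table, LHCA3 was below Allo733 in the C24 cross, with a log2 ratio of -0.27. These genes come from 1 comparison with 1 Allo733 library and are no independent evidence of each other.

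**Figure D2:**
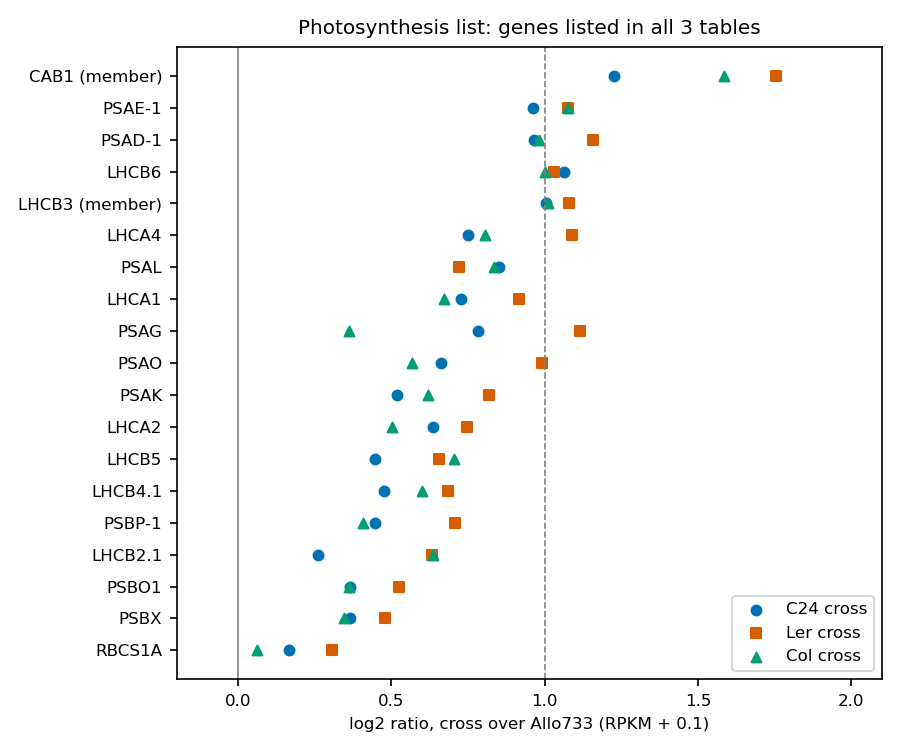
Log2 ratio of each cross to Allo733 (RPKM + 0.1) for the 19 photosynthesis genes listed in all 3 tables, ordered by their mean ratio, with 1 point a cross. The solid line marks 0 and the dashed line the 2-fold rule; all points lie right of 0, from 0.06 for RBCS1A in the Col cross to 1.75 for CAB1 in the Ler cross.

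The other 6 members of the chloroplast group serve pigment synthesis, carbon metabolism, membranes and RNA. PORB (AT4G27440), which reduces protochlorophyllide in the light on the way to chlorophyll, was at 46.2, 265 and 80.9 RPKM against 16.8. It had the widest spread of all members, with the Ler cross 5.74 times the C24 cross. CA2 (AT5G14740), a carbonic anhydrase, was at 42.5, 81.0 and 53.5 RPKM against 14.9, and was also highest in the Ler cross. GOX1 (AT3G14420), the photorespiratory enzyme glycolate oxidase, was at 69.01, 86.9 and 102 RPKM against 27.5.

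CP12-2 (AT3G62410), a small protein that holds enzymes of the Calvin cycle in an inactive complex in the dark, was at 240, 284 and 228 RPKM against 107. CSP41A (AT3G63140), an RNA-binding protein of the chloroplast, was at 401, 388 and 357 RPKM against 176. Both had folds below 3 in every cross and crosses within 1.24-fold of each other. DGD1 (AT3G11670), which makes the galactolipid digalactosyldiacylglycerol of thylakoid membranes, was at 12.3, 12.1 and 13.3 RPKM and was listed at 0 in Allo733. No fold is given for it, because a listed 0 can be a failed estimate for 1 transcript, and its other transcript is not listed beside Allo733.

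The 8 members with roles in lipids, the cuticle or lipid transfer include 5 of the 11 members whose crosses lay at least 2-fold apart. AT1G35290, a thioesterase superfamily gene, was at 76.4, 14.2 and 14.4 RPKM against 1.77. Its 43.3-fold higher level in the C24 cross was the largest of any member with a value above 0 in Allo733, while the other crosses were 8.05- and 8.13-fold higher. Of this group, 4 are annotated in the lipid-transfer and 2S albumin superfamily of small cysteine-rich proteins. AT4G15160 was at 24.4, 92.7 and 66.8 RPKM against 5.68, and AT5G01870 was at 44.2, 208 and 183 RPKM against 12.8. In both, the C24 cross was the lowest and the Ler cross the highest. AT5G48490 was at 189, 388 and 94.7 RPKM against 37.3, with the Col cross lowest, and AT2G45180 was at 201, 266 and 188 RPKM against 54.2.

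CYP86A2 (AT4G00360), a fatty acid hydroxylase that makes cutin monomers, was at 176, 135 and 141 RPKM against 61.6. KCS3 (AT1G07720), of the family that elongates very-long-chain fatty acids, was at 86.7, 75.8 and 67.2 RPKM against 31.2. AT4G13840, annotated as an acyl-transferase, was at 230, 78.8 and 126 RPKM against 31.0. All 3 were highest in the C24 cross. In a list of 28 wax and cutin genes, 6 were listed in all tables. CYP86A2 was the only member, and WSD1, a wax ester synthase, and LTP2, a lipid transfer protein, were 2-fold lower in every cross.

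Of the 5 members that act on the cell wall, AT1G71690, annotated as glucuronoxylan 4-O-methyltransferase-like, had the largest ratio. It was at 39.5, 29.0 and 33.1 RPKM against 5.80. EXGT-A3 (AT2G01850), which cuts and rejoins xyloglucan chains, was at 84.9, 69.03 and 89.0 RPKM against 23.604. BXL3 (AT5G09730), a beta-xylosidase, was at 141, 99.8 and 123 RPKM against 45.7. The Ler cross was the lowest of the crosses for all 5, which also hold the arabinogalactan protein AGP10 at 180, 142 and 172 RPKM against 59.3 and the pectin methylesterase inhibitor-like AT5G49180 at 223, 201 and 210 RPKM against 79.9. The secondary wall list had 7 genes in all tables and no member: each of these, such as the cellulose synthase IRX3 with log2 ratios of 1.62, -1.18 and -1.13, was above Allo733 in the C24 cross and below it in the others.

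The transport group had 6 members. AT1G06890, annotated as an EamA-like transporter, was at 27.95, 36.4 and 25.9 RPKM against 3.75. UMAMIT15 (AT5G13670), of a family that exports amino acids, was at 39.2, 28.5 and 30.05 RPKM against 8.28, and was the only gene of the 23-entry sugar and amino acid transport list in all tables. OCT3 (AT1G16390), an organic cation carrier, was at 26.4, 32.1 and 28.1 RPKM against 6.93. These transporters were moderate in level and 3.44- to 9.71-fold higher in the crosses.

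The other transport members were more abundant. PIP2A (AT3G53420), a plasma membrane aquaporin, was at 872, 569 and 555 RPKM against 258, and PIP1A (AT3G61430), an aquaporin of the PIP1 class, was at 151, 89.6 and 76.1 RPKM against 34.9. Both were highest in the C24 cross. PATL1 (AT1G72150), a phosphoinositide-binding protein of the growing cell plate, was at 236, 268 and 214 RPKM against 99.4.

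The 8 members in defence, stress, hormone response and specialised metabolism had little in common in level. UGT88A1 (AT3G16520), a glycosyltransferase, was at 30.5, 28.9 and 35.9 RPKM and listed at 0 in Allo733, so no fold is given. GASA1 (AT1G75750), a small cysteine-rich peptide of a gibberellin-responsive family, was at 325, 344 and 337 RPKM against 78.5. The crosses differed by at most 1.06-fold for GASA1, while all were over 4-fold above Allo733. COR15B (AT2G42530), which protects chloroplast membranes in the cold, was at 20.001, 46.6 and 26.6 RPKM against 4.88. It was the only member of the 6 cold and dehydration genes listed in all tables, where LTI78 (RD29A) had log2 ratios of -1.71, -2.52 and -1.41 and ERD10 had -1.79, -1.64 and -1.37.

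TGG1 (AT5G26000), a myrosinase that cleaves glucosinolates when tissue is damaged, was at 757, 692 and 501 RPKM against 217. Its paralog TGG2, with 82.7% of aligned coding bases shared, was no member: it was at 1182, 2.91 and 722 RPKM against 58.9. The near absence of TGG2 in the Ler cross alone kept it out. MES18 was at 67.9, 64.7 and 58.2 RPKM against 23.2, and the cytochrome P450 gene CYP709B1 was at 129, 153 and 119 RPKM against 54.0. CYP705A19, a further P450 gene, and AT2G43550, a defensin-like knottin gene, were near the threshold, with lowest log2 ratios of 1.01 and 1.02.

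Of the 7 members in RNA, nucleotide and primary metabolism, AGO3 had the largest ratio. AGO3 (AT1G31290), an Argonaute protein that binds small RNAs, was at 26.4, 19.8 and 22.0 RPKM against 2.11. It was 12.5-, 9.38- and 10.4-fold higher in the crosses. Its neighbour AGO2 (AT1G31280), with 82.3% of aligned coding bases shared, went the other way, at 10.8, 11.5 and 12.3 RPKM against 36.7. The crosses and Allo733 thus held the AGO2 and AGO3 levels in opposite order, and the part of read exchange between these genes was not tested.

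AT5G22440, of the ribosomal protein L1 family, was at 26.2, 36.0 and 35.9 RPKM against 6.71, and PGL5 (AT5G24420), an enzyme of the pentose phosphate pathway, was at 625, 528 and 408 RPKM against 174. APT3 (AT4G22570), which salvages adenine, was at 274, 283 and 372 RPKM against 113. LAP1 (AT2G24200), an aminopeptidase, was at 77.9, 89.5 and 72.5 RPKM against 27.95, and GRP2B (AT2G21060), a cold shock domain protein that binds RNA, was at 61.7, 62.4 and 65.9 RPKM against 25.5. AT4G18440, an L-aspartase-like gene, was at 157, 80.3 and 124 RPKM against 29.3. GRP2B was among the most even members, with crosses within 1.07-fold of each other.

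Of the other enzymes, AT5G47350, an alpha/beta-hydrolase gene, was abundant at 1343, 1200 and 823 RPKM against 349. AT1G04040, an acid phosphatase-like gene, was at 143, 64.7 and 64.2 RPKM against 21.2, and the aspartyl protease gene AT4G16563 was at 43.0, 37.4 and 67.7 RPKM against 10.2. AT2G41475, annotated as embryo-specific protein 3, was the member nearest to the threshold, at 106, 86.7 and 88.6 RPKM against 43.3.

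Of the last 5 members, 4 are annotated as uncharacterized, and AT3G50685 carries only the product name of an animal hormone receptor. AT1G67865 was at 33.1, 89.1 and 64.6 RPKM against 7.16, and AT5G02160 was at 129, 362 and 137 RPKM against 48.2. AT3G50685 was at 187, 204 and 182 RPKM against 46.5, AT1G61255 was at 68.6, 107 and 85.9 RPKM against 28.7, and AT5G21020 was at 62.3, 83.6 and 65.5 RPKM against 28.1. The Ler cross was the highest for all of them.

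Near the threshold, LHCB3, CYP705A19 and AT2G41475 had lowest log2 ratios of 1.01, 1.01 and 1.00, and CSP41A and AT2G43550 had 1.02. Just outside it lay LHCB6 at 0.99986, AT3G03150 and AT2G44310 at 0.98 and 0.97, the carboxypeptidase gene scpl20 at 0.97 and PSAD-1 at 0.96. At the other end 11 members had a ratio of at least 4-fold in every cross, and 32 had a lowest log2 ratio below 1.5.

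For 9 members more than 1 transcript was listed beside Allo733, and for 5 of these another transcript was below Allo733. AT5G22440 was at 26.2, 36.0 and 35.9 RPKM against 6.71 by its second transcript, the one used, and at 7.85, 39.1 and 42.9 RPKM against 94.0 by its first. GOX1 was at 69.01, 86.9 and 102 RPKM against 27.5 by the transcript used and at 43.0, 24.7 and 39.2 RPKM against 73.8 by another. AT1G06890, LAP1 and PIP1A each had a further transcript in 1 table only, and it was below Allo733 there. In AT1G06890 that transcript was at 2.14 RPKM in the Ler cross against 46.3 in Allo733. For these 5 genes the direction holds for the transcript used and not for every listed transcript.

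For PIP2A, PORB, CA2 and TGG1 every listed transcript was at least 2-fold above Allo733 in every cross. The remaining 45 members had 1 transcript beside Allo733, and 41 of them had 1 transcript in the tables of the crosses too. The exceptions were UGT88A1, DGD1, AT4G15160 and CYP709B1, whose other transcripts were listed in the crosses only. DGD1's other transcript was at 17.9, 18.5 and 19.1 RPKM, above the transcript used in every cross. UGT88A1's other transcripts were at 31.5 to 48.9 RPKM in the crosses. The listed 0 in Allo733 therefore says nothing of the total of either gene.

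**Figure D3:**
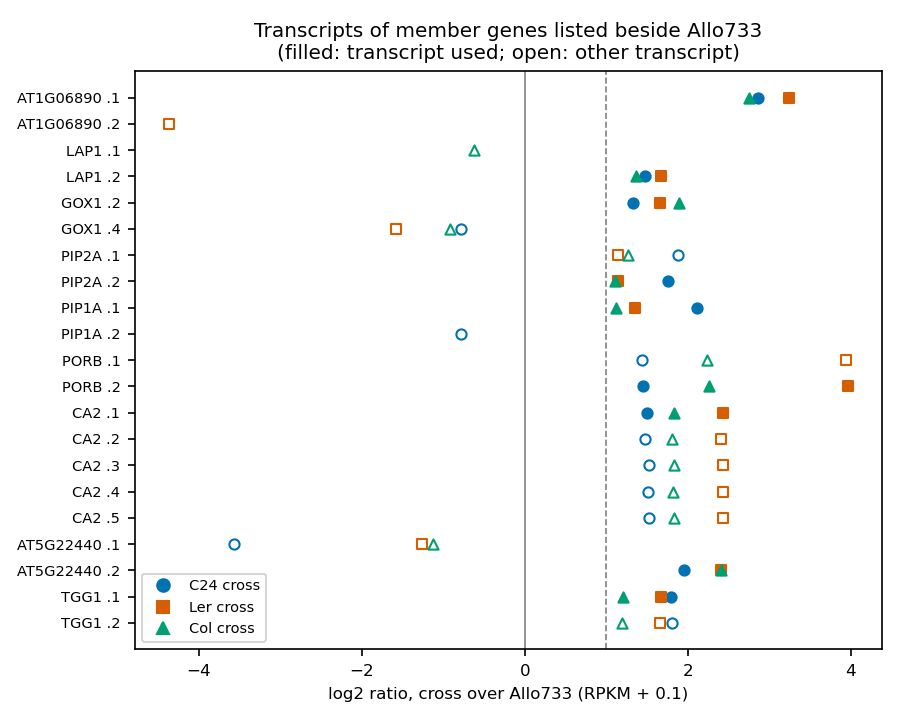
Log2 ratio of each cross to Allo733 (RPKM + 0.1) for every transcript listed beside Allo733 of the 9 members with several, by cross, with filled symbols for the transcript used and open symbols for others. The solid line marks 0 and the dashed line the 2-fold rule; open symbols of AT1G06890, LAP1, GOX1, PIP1A and AT5G22440 lie left of 0, down to -4.37 for AT1G06890 in the Ler cross.

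The origin of the members' RNA was not used by the rule. The tables of the crosses split each RPKM into columns T and A, read here as the A. thaliana and A. arenosa alleles, and no such split was used for Allo733. The median A. arenosa share of the members was 3.83%, 3.93% and 4.69%. Over the 14660 genes with allele values in every cross it was 5.41%, 3.77% and 4.79%. The members' median thus lay below that of all genes with C24 and Col and above it with Ler, by less than 2 percentage points each time, and no test was made. With the A. thaliana allele alone in place of the total, 51, 50 and 45 members were still at least 2-fold above Allo733, and 42 were so in every cross. This follows largely from the rule, since for most members that allele made up nearly all of the total that chose them. The Allo733 value is not split by species, and no share over other genes was taken.

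In the Col cross more members had a sizeable A. arenosa share. A share of at least 20% was found for 3, 2 and 10 members, that is 5.56%, 3.70% and 18.5% of them. Over all 14660 genes it was found for 5.65%, 3.03% and 7.34%, and over the 326 genes listed in all 3 tables for 6.75%, 3.99% and 9.51%. For the 80 genes lower in every cross the values were 15%, 11.2% and 13.8%. A share of at least 50% was found for 4 members, all in the Col cross. AT5G01870 was listed there with 183 RPKM from A. arenosa and next to none from A. thaliana, while A. thaliana gave 42.8 of 44.2 RPKM with C24 and 189 of 208 with Ler. UMAMIT15 had 28.8 RPKM from A. arenosa and 1.29 from A. thaliana in the Col cross, but 1.27 and 38.0 with C24 and 0.611 and 27.9 with Ler. In both genes the total of the Col cross lay near that of the Ler cross, while the allele to which most of it was assigned differed. Each cross is 1 library, and whether the allele assignment was right for these genes was not tested.

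AT1G35290 had 9.62 RPKM from A. arenosa and 4.74 from A. thaliana in the Col cross, against 4.52 and 71.9 in the C24 cross. PIP2A had 283 and 272 RPKM from A. arenosa and A. thaliana in the Col cross, a share of 50.9%, against 3.74% with C24 and 4.79% with Ler. Its other transcript, at 85.2 and 275 RPKM, did not share this balance. AT4G15160 had 3.02, 14.6 and 30.2 RPKM from A. arenosa, and its share was 12.4%, 15.7% and 45.2%.

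The A. arenosa allele by itself exceeded the whole of the Allo733 level for 4, 5 and 9 members. The rule asks for an Allo733 value well below the total of each cross, which favours this. The share over other genes was not computed, so nothing is read from these counts. AGO3 was the only one with a value above 0 in Allo733 for which this held in all 3, at 5.59, 3.46 and 3.76 RPKM from A. arenosa against a total of 2.11 RPKM in Allo733. UGT88A1 and DGD1 met it only because they are listed at 0.

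**Figure D4:**
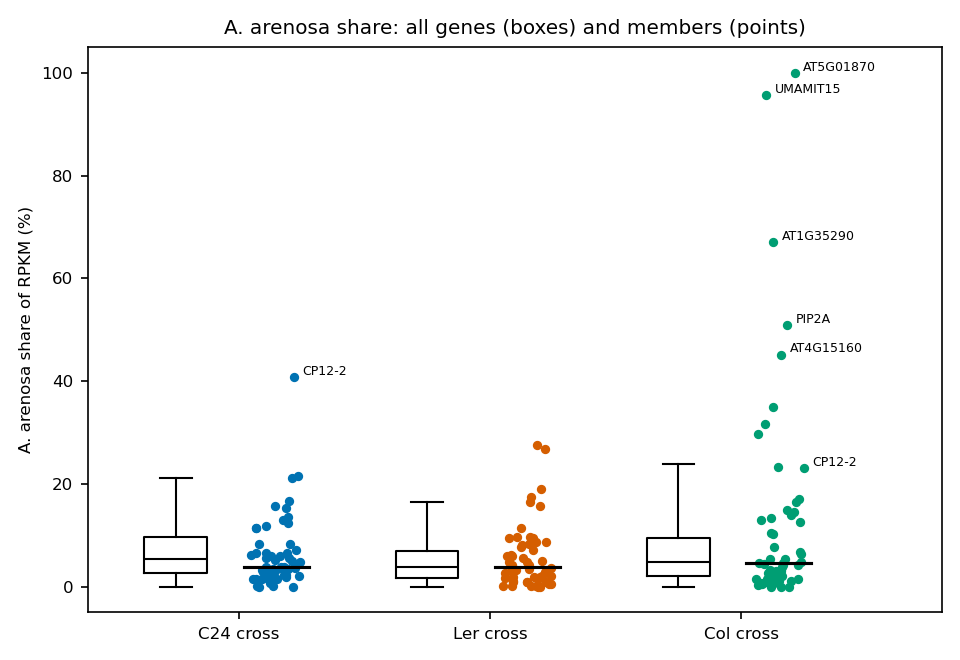
A. arenosa share of RPKM in each cross, with a box for the 14660 genes (median and quartiles, with whiskers that leave out the lowest and highest 5%) and a point for each of the 54 members, whose median is the horizontal line. The member medians of 3.83%, 3.93% and 4.69% lie near the box medians, and 4 members reach 50% or more in the Col cross only.

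**Figure D5:**
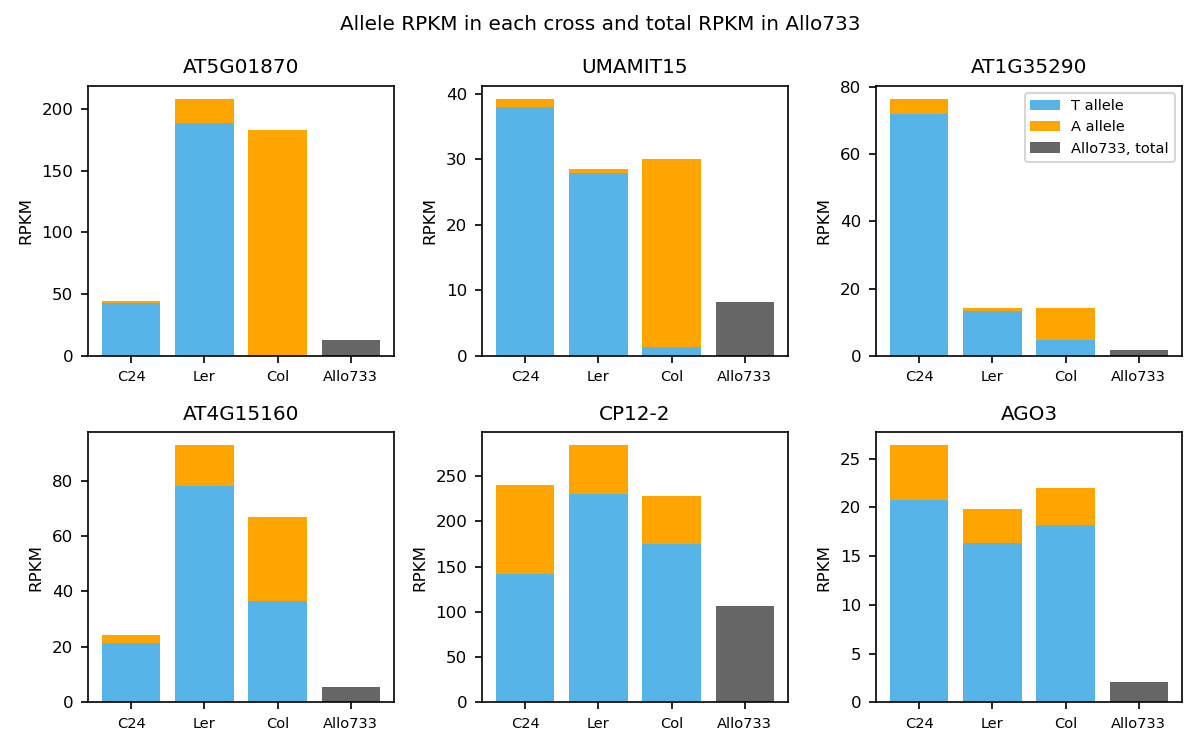
RPKM from the A. thaliana allele (T, blue) and the A. arenosa allele (A, orange) in each cross, stacked to the total, beside the total of Allo733 (grey), for 6 members with 1 library a bar. In the Col cross AT5G01870 and UMAMIT15 are almost wholly orange, while AGO3 has an orange part above the grey bar in every cross.

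Whether a member's allelic ratio departed from that of the typical gene was tested over the 3 crosses with limma, on log2((A + 0.1)/(T + 0.1)) after subtracting each cross's median, with Benjamini-Hochberg adjustment over all 14660 genes. The crosses serve as replicates, so the spread holds ecotype and library together. Of the members, 3 had a ratio shifted towards A. arenosa (5.56%, against 7.97% of all genes) and 6 a ratio shifted towards A. thaliana (11.1%, against 3.38%). A gene at low RPKM cannot depart far towards A. thaliana, because the added 0.1 bounds its ratio even with A at 0. The members' median level was 129, 101 and 111 RPKM, while totals over all genes went down to 2.00 RPKM. These shares were not matched for level. With a pseudocount of 1 in place of 0.1, 2 of the 54 members were shifted towards A. arenosa, against 3612 of all 14660 genes (24.6%). Towards A. thaliana 25 of the 54 were shifted, against 3499 of all genes (23.9%). A departure is taken from the median of all genes, which itself moves with the pseudocount and with the minimum total. At an unadjusted p below 0.05, limma gave 11 and 13 of the 54 members, against 2779 and 2291 of all 14660 genes. Of the 80 genes lower in every cross, 15 (18.8%) were shifted towards A. arenosa and 2 (2.5%) towards A. thaliana. The difference between these sets was not tested.

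Towards A. arenosa, CP12-2 departed by 2.66 ± 0.37 log2 units (SE, limma adjusted p = 0.0383) with shares of 40.7%, 19.1% and 23.1%. AGO3 departed by 2.00 ± 0.28 (SE, limma adjusted p = 0.0383), with shares of 21.2%, 17.5% and 17.1%. GRP2B departed by 1.60 ± 0.31 (SE, limma adjusted p = 0.0433), with shares of 21.6%, 9.69% and 15.01%. With a pseudocount of 1 the departures were smaller, at 1.45 for CP12-2, 0.99 for AGO3 and 0.49 for GRP2B, which lost its call (limma adjusted p = 0.123). The subtracted median moved as well, so these changes are not of the genes' own ratios alone. All 3 lay above the median share of every cross, and in all the A. thaliana allele still gave the larger part.

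Towards A. thaliana, LHCB2.3 departed by -4.62 ± 0.58 log2 units (SE, limma adjusted p = 0.0383), with an A. arenosa share of 0.178%, 0.217% and 0.293%. Of its RPKM in the crosses, 1.93, 2.68 and 3.13 RPKM were from A. arenosa. AT1G67865 departed by -4.58 ± 0.62, with A. arenosa listed at 0 in the C24 and Ler crosses, and GOX1 by -3.00 ± 0.46, with shares of 0.698%, 0.554% and 0.565% (limma adjusted p = 0.0383 for both). PIP1A, AT3G50685 and LHCB3 departed by -2.54 ± 0.46, -2.25 ± 0.42 and -1.82 ± 0.40 (SE, limma adjusted p = 0.0410, 0.0413 and 0.0495). LHCB3 lost its call with a minimum of 5 RPKM (limma adjusted p = 0.0575), while a pseudocount of 1 moved it to -3.02 and AT1G67865 to -2.91. With A. arenosa at 71.8, 40.9 and 49.9 RPKM for LHCB3, its own ratio hardly changed, and the subtracted median did. No call of either direction was left by limma when any 1 cross was taken out, among the members or among all 14660 genes. At an unadjusted p below 0.05, limma then gave 7 to 9 members towards A. arenosa and 10 to 14 towards A. thaliana. Over all genes these counts were 2042 to 2609 and 1401 to 1844.

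Among the light-harvesting members the A. arenosa shares ranged from the 0.178% of LHCB2.3 with C24 to the 13.5% of CAB1 with C24. CAB1 had shares of 13.5%, 9.05% and 12.9% and CAB2 of 5.53%, 5.88% and 5.48%, while LHCB3 had 2.23%, 1.21% and 1.54%. CAB1 departed by 1.19 ± 0.27 log2 units (SE, limma adjusted p = 0.0528), which missed the threshold. Its departure was -0.03 with a pseudocount of 1 (limma adjusted p = 0.897) and 1.34 with a minimum of 5 RPKM, which passed (limma adjusted p = 0.0387). The A. arenosa values of CAB1 were 1355, 1310 and 1666 RPKM, so these settings moved the subtracted median and hardly its own ratio. LHB1B1 had 6.60%, 4.94% and 13.3%. The members with the largest mean shares, AT5G01870 and UMAMIT15, did not pass the test, since their ratio changed sides between crosses (limma adjusted p = 0.316 and 0.470).

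Gene structure was not used by the rule either. A single coding exon was found in 16 of 54 members (29.6%), against 18% of the genes listed in all 3 tables, 12.8% of those lower in every cross and 15.9% of all genes in the tables of the crosses. The median coding length was 862.5 bases for the members, 861 for the listed genes and 1173 for all genes. The members lay on all 5 chromosomes, with 13, 9, 10, 8 and 14 on chromosomes 1 to 5. These are counts without a test.

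In the 250 bases before the annotated start, motifs were searched on both strands in all 54 members and in 27443 genes of the TAIR10.1 annotation. The ACGT core was in 28 members (51.9%) and in 44.1% of all genes, and the G-box CACGTG, which contains it, in 3 members (5.56%) and 6.49%. Of 322 genes listed in all 3 tables, 49.4% held the ACGT core and 8.7% the G-box. The RY repeat CATGCA, known from seed genes, was in 8 members (14.8%) and 8.43%, and in 12.4% of the genes listed in all 3 tables. The I-box core GATAAG, known from light-responsive genes, was in 7 members (13.0%) and 12.3%, and the site II element TGGGCC in 4 (7.41%) and 13.7%. The W-box core TTGACN was in 19 (35.2%) and 44.8%, the TATA box TATAAA in 25 (46.3%) and 47.3% and the AC element ACCNANC in 13 (24.1%) and 27.8%. The dehydration-responsive core GCCGAC was in 1 member (1.85%) and 2.56%, and the GCC box GCCGCC in none of the members and 1.87%. Of the 5 promoters printed above, only that of LHCB2.3 held a G-box.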

How the data were processed

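Poly(A) RNA was sequenced from 1 library for each of 4 groups. The authors deposited RPKM values per transcript, per the file headers: a table of total, T-allele and A-allele RPKM for each cross, and a table of selected transcripts of each cross beside Allo733. Per the submitters' processing notes the genome build was TAIR 9. How reads were mapped and assigned to alleles, the annotation and the rule of selection were not given in the sources used here. RPKM is scaled to each library, so abundant transcripts can shift all others, and read depth is unknown, so no counting interval is given.

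The members, gene lists and roles were chosen with earlier results of these data known. For each gene the transcript listed in most of the Allo733 tables, then with the highest mean, was kept, and ratios were log2 of RPKM plus 0.1, which understates changes of low genes; folds are ratios of RPKM without it. Allele ratios were fitted with an intercept in R 4.3.3 by limma 3.58.1, using its trend of variance on mean level, a minimum total of 1 RPKM and Benjamini-Hochberg adjustment at 0.05; the fit was tested on simulated data. Nothing says that libraries came from separate plants or pools, so p-values measure the spread between these 3 libraries. In the allele table of the Col cross 4 repeated header lines were dropped. Gene codes were matched to the TAIR10.1 annotation for names, coding sequence and the 250 bases before each gene start. Coding sequences were aligned with Biopython 1.88; Python 3.11.15, numpy 2.4.6, pandas 2.3.3 and matplotlib 3.10.9 were used.

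Genes were named by a rule: the 10 with the largest lowest ratio, the 5 most abundant, 5 just inside and 5 just outside the threshold, 5 with the highest and 5 with the lowest mean A. arenosa share, and up to 4 members of each list. All other members and their relatives were named after their values were seen. The alternatives were a pseudocount of 1, a minimum of 5 RPKM, a 4-fold rule, all transcripts, centring, no filter, no centring of the allele ratio and leaving out each cross. Having no filter could change nothing, because no total lay below 2.00 RPKM.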

Additional observations from a re-analysis of the deposited data

How the results depend on the processing

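The count of 54 genes became 11 with a 4-fold rule and 84 when each table was centred on its median. Requiring only 2 crosses gave 79 to 139 genes, the largest number without the Ler cross and 86 without the Col cross. Each of these sets holds all 54 by definition, because the rule is looser. A pseudocount of 1 gave 52, since CYP705A19 and AT2G41475 fell below the threshold. A minimum of 5 RPKM could not change the 54, since every member lay above it in each cross. The rule applied to all listed transcripts gave 62 transcripts. Chosen after seeing the data, requiring every listed transcript to pass gave 49, leaving out the genes listed at 0 in Allo733 gave 52, and the A. thaliana allele alone gave 42. Each of these choices could only lower the count. Per cross, the 4-fold rule left 148, 84 and 89 genes in the order C24, Ler and Col. Without centring, the allelic test gave 0 members towards A. arenosa and 51 towards A. thaliana, against 6 and 14463 of all 14660 genes. With a pseudocount of 1 it gave 25 of the 54 members towards A. thaliana, against 3499 of all 14660 genes (23.9%). Leaving out a cross gave 0 in either direction each time by limma, for the members and for all 14660 genes. At an unadjusted p below 0.05, limma then gave 7 to 9 and 10 to 14 members, against 2042 to 2609 and 1401 to 1844 of all genes. No paired analysis was possible because each group holds 1 library. With 1 library a group and unknown depth, no ratio to Allo733 has an error.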

Other observations

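Most of the lists of other functions could not be compared for the members, because few of their genes were listed beside Allo733. None of the genes of the flavonoid, defence, senescence, heat shock, cell cycle, seed storage and maturation, endosperm and embryo, pollen, carpel and fruit, circadian clock and light, or auxin response lists was listed in all 3 tables. The lists of jasmonate genes (4 listed in all tables), lignin monomer genes (2) and wall-loosening genes (3) held no member, and 1 jasmonate gene, AOC3, and 1 wall-loosening gene, EXPA10, were at least 2-fold lower than Allo733 in every cross. Of the 4 glucosinolate genes in all tables, TGG1 was the only member and none was 2-fold lower in every cross.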
